A study of Sus scrofa with 10 samples.

Results

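The apoptosis pathway genes described here are the protein-coding loci of the deposited table whose KEGG column lists the Apoptosis pathway. Loci that also list the cell cycle, protein processing in the endoplasmic reticulum or TGF-beta signaling were dropped, as was FOS by name. The rule also names JUN, which did not occur among the loci that list the pathway. Of 19972 protein-coding loci among 43499 loci in all, 127 list the pathway, 23 were dropped and 104 remained as members. The dropped loci are 5 that list the cell cycle, 14 that list protein processing in the endoplasmic reticulum, 3 that list TGF-beta signaling, and FOS. They include BAX and BAK1, which belong to the core of apoptosis and are described separately at the end. The rule itself uses annotation only.

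Apoptosis is a form of programmed cell death that can be started from outside or from inside the cell. In the extrinsic route, ligands such as FASLG and TNFSF10 bind death receptors, which activate the initiator caspases CASP8 and CASP10 through the adaptor FADD. In the intrinsic route, proteins of the BCL2 family control the release of cytochrome c from mitochondria, which activates CASP9 on the APAF1 scaffold. Both routes end in caspases that cut targets such as PARP1 and lamins. In the ovary, apoptosis of granulosa cells is a hallmark of follicular atresia, FSH is a survival signal for growing follicles, and cell death takes part in the regression of the corpus luteum.

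Ovary RNA was sequenced from 10 gilts of 234 days of age, 5 controls and 5 treated with rpFSH, with a separate library per pig. All 10 had been fed altrenogest, a progestin that holds back oestrus, at 20 mg per day for 18 days from day 210 and then none for 2 days. Each treated pig then received 1000 IU of recombinant pig FSH (rpFSH) by injection, and controls received normal saline instead. Surface follicles were removed before the ovaries were frozen, so the tissue under study is the ovary without them, and the sequenced pigs were drawn at random from larger groups. The comparison asks which ovarian genes differ after rpFSH. Pigs are named by their group and replicate number, such as control 2 or rpFSH 4.

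Control libraries held 65166187 to 75114003 counts (median 73731592), and rpFSH libraries 64873797 to 74656992 (median 69517370). The 104 members together held between 0.902 and 1.15% of the counts of a control pig and between 0.888 and 1.26% of those of an rpFSH pig. The detection floor was set at 3 counts, equal to 0.0399 to 0.0462 CPM (counts scaled to library size) depending on the library, and it accounts for counting error alone. Levels of different genes are given below as FPKM, which is per length, and the same gene is compared between pigs as CPM scaled by TMM.

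Genes that mark the cells of the ovary were read first. Of the granulosa cell list, 5 of 6 genes were matched by name, with INHA the most abundant at a mean of 29.2 FPKM. The theca cell list (2 of 2, INSL3 at 74.2 FPKM), the oocyte list (5 of 6, GDF9 at 3.72 FPKM), the stroma list (5 of 5, COL1A1 at 311 FPKM), the endothelium list (5 of 5, VWF at 22.7 FPKM) and the smooth muscle list (5 of 5, ACTA2 at 139 FPKM) were likewise detected. The labelled tissue thus carried the markers of an ovary. The pigs differed widely in these markers, within both groups, and in bulk tissue fewer cells of a type and less RNA per cell cannot be told apart.

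Control 2 and control 5 stood apart from the other 8 pigs. The markers of oviduct-type ciliated epithelium, of which 8 of 10 were matched, summed to 46.9 FPKM in control 2 and 117 in control 5, against 4.86 to 8.22 in the other pigs. Their most abundant gene was OVGP1, at a locus shared with WDR77, and FOXJ1, the master regulator of motile cilia, had a count of 0 in 2 pigs. The epithelial markers, 6 of 7 matched with KRT8 the most abundant, summed to 35.5 FPKM in control 2 and 64.8 in control 5, against 1.15 to 5.42. By edgeR with all pigs, 7 of the 8 ciliated and 5 of the 6 epithelial markers were lower in the rpFSH treatment group at an unadjusted P under 0.05. Of all tested loci, 3.22% were lower. The high sums were those of control 2 and control 5 only. In controls 1, 3 and 4 the ciliated sums were 6.77 to 8.22 FPKM, against 4.86 to 7.51 in the rpFSH pigs. The epithelial sums were 1.15 to 5.42 FPKM in these controls and 2.70 to 4.32 in the rpFSH pigs. Smooth muscle markers also set these pigs apart, with the highest sum, 1789 FPKM, in control 5 and the lowest, 65.3 FPKM, in control 2, against 116 to 484 FPKM in the other pigs.

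A different set of pigs was rich in luteal cell markers, the steroidogenic genes of the corpus luteum. The summed FPKM of CYP11A1, STAR and SCARB1, 3 matched of 5 listed, was 2473 in control 2, 1359 in rpFSH 1 and 328 in rpFSH 4, against 10.6 to 47.6 in the other pigs. Granulosa cell markers summed to 4.83 FPKM in control 2, 10.7 in rpFSH 3 and 14.5 in control 5, against 29.1 to 93.0 in the other pigs. Theca cell markers were lowest in rpFSH 3 and control 2, with sums of 3.47 and 5.81 FPKM against 24.6 to 222. The counts of members are therefore given below with all pigs and in fits that leave out some of control 2, control 5, rpFSH 1 and rpFSH 4. Pig rpFSH 3 was left out only in the fits without 1 pig at a time.

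The members were tested with the quasi-likelihood test of edgeR on 15170 protein-coding loci whose FPKM averaged 0.1 or more over the 10 pigs. Of the 104 members, 100 passed this filter. The other 4 were BCL2A1, HRK, and the loci ENSSSCG00000001979 (mast cell protease 3) and ENSSSCG00000024275 (cytochrome c-like). BCL2A1, an anti-apoptotic protein of blood cells, had between 20 and 100 counts in each pig and a mean of 0.0929 FPKM. HRK had 1 count in all, in rpFSH 3, and the 2 remaining loci had 0 counts in every pig. At 15 of the 104 members the locus joins more than 1 gene name, written with a slash, so that its counts pool these genes. Another 9 have only an identifier, and their names are taken from the descriptions in the table.

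Between the groups, 4 of the 100 tested members had an unadjusted P under 0.05. AKT2 and the joined locus of ARNT and the cathepsin CTSS were higher in the rpFSH treatment group, while a tubulin alpha-1D locus and GZMB (granzyme B) were lower. The share of 4 in 100 lay near the background, since 4.76% of all tested loci had such a P, 1.54% higher and 3.22% lower. No member had a Benjamini-Hochberg adjusted p under 0.05 with edgeR (0 of 100, against 0.0% of all tested loci), the smallest adjusted p of all being 0.992. With DESeq2, 5 members had an unadjusted P under 0.05, against 6.04% of all loci, and 0 passed after adjustment, where 0.567% of all loci did so. The corresponding numbers for limma on FPKM were 2, against 3.03% of all loci, and 0. With the limit of a 2-fold change added, 0 members were higher and 2 lower, against 0.508 and 2.58% of all tested loci.

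The median log2 fold change of the 100 members was 0.00, against -0.01 over all tested loci, and 50 of the 100 were above 0. The quartiles of the members were -0.14 and 0.15, whereas those of all tested loci were -0.20 and 0.15. The difference on the log2 (CPM + 0.5) scale was estimated with limma to give each member a 95% interval. For 78 of the 100 members this interval lay within a 2-fold change in either direction, as it did for 74.1% of all tested loci. In the remaining 22 it reached beyond 2-fold.

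**Figure D1:**
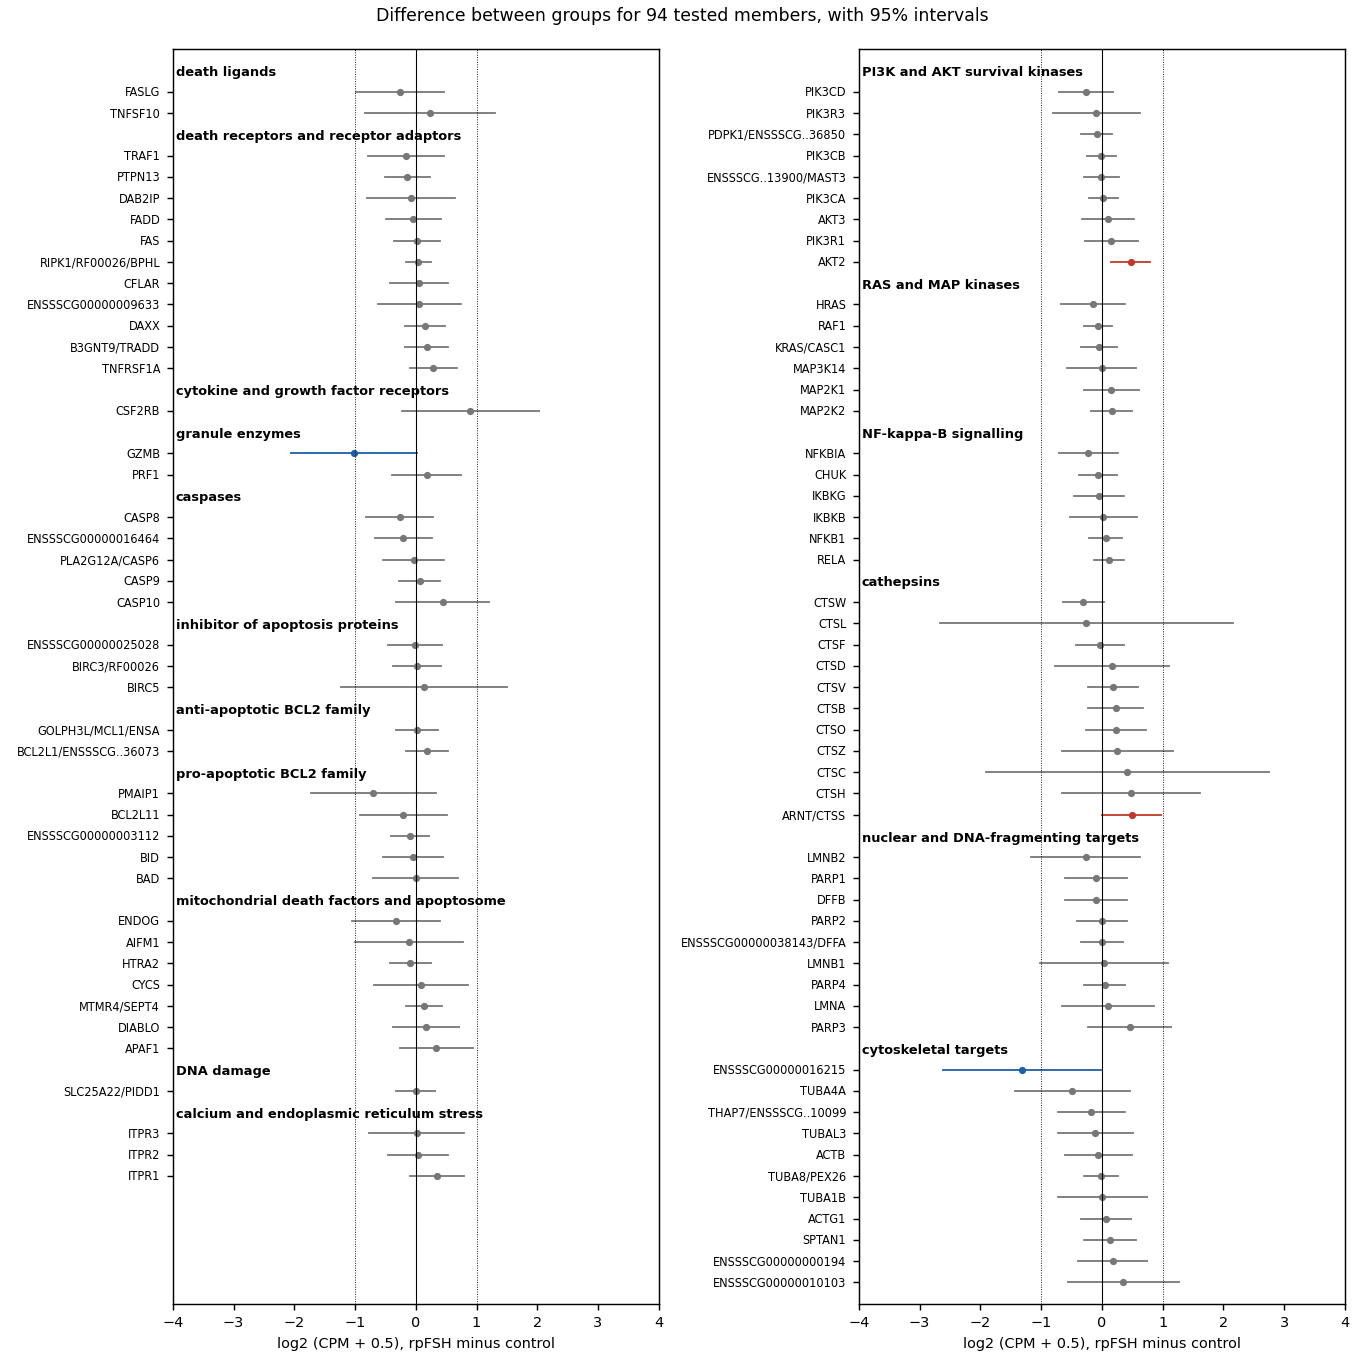
Difference in log2 (CPM + 0.5) between the rpFSH treatment group and the control group for 94 of the 100 tested members, ordered by role. Points are limma estimates, lines are 95% intervals, dotted lines mark a 2-fold change, and the 2 red and 2 blue members had an unadjusted P under 0.05 with edgeR, higher and lower in the rpFSH treatment group. Intervals are narrow for most kinases and death receptors and wide for CTSL and CTSC.

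AKT2 is a kinase of the insulin and PI3K pathway that phosphorylates and restrains pro-apoptotic proteins such as BAD. Its locus is on chromosome 6, from 48555643 to 48606167 on Sscrofa11.1. In the control pigs 1 to 5 its CPM was 56.6, 44.0, 58.6, 62.6 and 42.0, and in the rpFSH pigs 1 to 5 it was 69.4, 81.9, 63.9, 67.5 and 82.0. All 5 rpFSH pigs lay above all 5 control pigs, although control 4 at 62.6 and rpFSH 3 at 63.9 CPM were close. The log2 fold change was 0.47, or 1.38-fold, with an unadjusted P of 0.00949 and an adjusted p of 0.992 by edgeR. The interval on the log2 (CPM + 0.5) scale ran from 0.16 to 0.79 (SE 0.14), and the exact permutation p was 0.00794, the smallest that 5 against 5 pigs allow. AKT2 was the only member whose groups did not overlap in this direction and 0 members did so in the other, against 0.257 and 0.277% of all tested loci. Control 2 and control 5 were also the 2 lowest pigs, and without them the log2 fold change was 0.31 (unadjusted P = 0.0449 by edgeR).

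The joined locus ARNT/CTSS on chromosome 4 (98333459 to 98470107) pools a subunit of hypoxia- and dioxin-responsive transcription factors with cathepsin S, a lysosomal protease of antigen-presenting cells. Its CPM was 233, 215, 261, 217 and 204 in controls 1 to 5 and 305, 215, 515, 381 and 246 in rpFSH 1 to 5. The controls were close together, and rpFSH 2 and rpFSH 5 lay within their range while rpFSH 1, 3 and 4 lay above it. The log2 fold change was 0.56 (unadjusted P = 0.0340 by edgeR), with an interval on the log2 (CPM + 0.5) scale from -0.0039 to 0.98, and the exact permutation p was 0.0794. Without control 2 and control 5 the log2 fold change was 0.50 (unadjusted P = 0.112 by edgeR). Without control 2, rpFSH 1 and rpFSH 4 it was 0.52 (unadjusted P = 0.132 by edgeR). Leaving out control 5 as well gave 0.47 (unadjusted P = 0.210 by edgeR). Which of the pooled genes carried the difference cannot be read from these counts. Macrophage markers, 8 of 8 matched with CD68 (at a joined locus) the most abundant, summed to between 38.5 and 48.6 FPKM in the controls and between 32.2 and 51.9 in the rpFSH pigs, and 0 of the 8 had an unadjusted P under 0.05. Most of this sum is the CD68 locus, which pools the translation factor EIF4A1. CSF1R, a macrophage marker at a locus of its own, was at 5.09 FPKM in rpFSH 3 and 4.60 in rpFSH 4, the 2 highest pigs for ARNT/CTSS, at 4.55 in control 2, and at 1.37 to 3.05 in the other pigs. The lowest CSF1R value, 1.37, was that of rpFSH 1, which also lay above the controls for ARNT/CTSS. MSR1 was highest in rpFSH 3, rpFSH 4 and control 2, at 1.28, 1.39 and 1.45 FPKM, against 0.225 to 0.657 in the others. C1QA and AIF1 were also highest in these pigs, and ITGAM in rpFSH 3 and rpFSH 4. CD163 was highest in control 2 and rpFSH 3, but higher in rpFSH 5 than in rpFSH 4 (6.18 against 5.55 FPKM). CD14 was highest in control 2 and rpFSH 1, at 2.16 and 1.93 FPKM. The part of these markers in the ARNT/CTSS result was not tested.

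The tubulin alpha-1D locus, ENSSSCG00000016215, lies on chromosome 15 (121305573 to 121311865), and tubulins enter the pathway as cytoskeletal targets of caspases. Its CPM was 0.648, 6.85, 0.794, 1.07 and 8.33 in controls 1 to 5 and 0.649, 0.364, 1.13, 0.624 and 0.380 in rpFSH 1 to 5. Only control 2 and control 5 were high, and the other 3 controls overlapped the rpFSH pigs. The log2 fold change was -2.49 (unadjusted P = 0.00975 by edgeR) with all pigs and -0.40 (unadjusted P = 0.408) without control 2 and control 5. With all pigs the limma difference on the log2 (CPM + 0.5) scale was -1.31, with an interval from -2.62 to -0.0071, and the exact permutation p was 0.0714. These were also the 2 pigs with high ciliated and epithelial markers, whose part in the result was not tested.

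GZMB, the protease that cytotoxic lymphocytes pass into target cells, lies on chromosome 7 (74705061 to 74731148) and was hardly above the filter at a mean of 0.111 FPKM. Its counts were 25, 165, 19, 17 and 270 in controls 1 to 5 and 8, 12, 15, 4 and 28 in rpFSH 1 to 5. Control 2 and control 5 again held the high values, and GZMB passed the filter through the control group, with a mean of 0.196 FPKM against 0.0269 in the rpFSH treatment group. The log2 fold change was -2.73 (unadjusted P = 0.0116 by edgeR) with all pigs and -0.56 (unadjusted P = 0.404) without these 2 controls. The limma difference on the log2 (CPM + 0.5) scale was -1.02, with an interval from -2.06 to 0.0146 that includes 0, and the exact permutation p was 0.0635. PRF1, the pore protein that lets granzymes in and itself one of the lymphocyte markers below, was at 2.64 to 5.89 CPM in the controls and 2.90 to 6.07 CPM in the rpFSH pigs. Markers of T and natural killer cells, 8 of 8 matched with CD3G (at a joined locus) the most abundant, summed to 11.0 FPKM in control 2, 10.9 in control 5 and 11.8 in rpFSH 4, against 5.53 to 10.3 in the other pigs. The largest part of this sum is the CD3G locus, which pools UBE4A. At loci of their own, CD3E, CD8A and ZAP70 were highest in control 2 and control 5. CD8A was at 0.405 and 0.488 FPKM there, against 0.0572 to 0.319 in the other pigs. CD3D was highest in control 5, whereas CD2 was highest in rpFSH 4 and NKG7 in rpFSH 3. PRF1 was highest in control 2 by FPKM (0.994 against 0.978 in rpFSH 4) and in rpFSH 4 by CPM (6.07 against 5.89 in control 2). The part of these markers in the result was not tested.

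**Figure D2:**
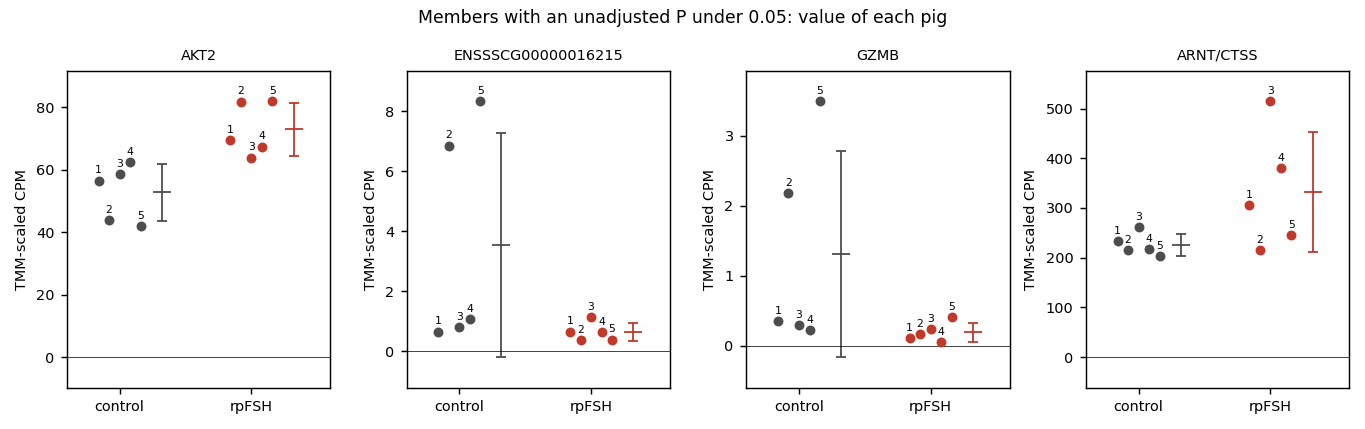
TMM-scaled CPM of the 4 members with an unadjusted P under 0.05 in each pig, with replicate numbers beside the points and the group mean and SD as bars (5 pigs per group). AKT2 is the member whose groups do not overlap, and the tubulin locus and GZMB are high in control 2 and control 5 only.

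Among the ligands and receptors, all 3 ligands and 11 receptors and adaptors were tested, and 0 had an unadjusted P under 0.05. Of the ligands, FASLG was low, at a mean of 0.168 FPKM with 4 to 103 counts per pig, whereas TNFSF10 (TRAIL) reached a mean of 7.00 FPKM. The receptors and adaptors were at a moderate level, from 0.990 FPKM for FAS to 13.3 FPKM for PTPN13, a phosphatase that binds FAS. Their intervals all lay within a 2-fold change, and their log2 fold changes were between -0.18 and 0.30. TNFRSF1A, the main receptor of TNF, was at 48.0 to 72.2 CPM in the controls and 50.0 to 84.8 in the rpFSH pigs, a log2 fold change of 0.30 (unadjusted P = 0.122 by edgeR). The adaptor FADD and the caspase-8 inhibitor CFLAR had log2 fold changes of -0.01 and 0.04.

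TNFSF10 was at 45.5, 53.8, 56.2, 62.9 and 65.8 CPM in controls 1 to 5 and at 29.7, 53.1, 90.1, 245 and 37.3 CPM in rpFSH 1 to 5. A single pig, rpFSH 4, was far above the rest, and the other rpFSH pigs lay on both sides of the controls. The log2 fold change of 0.68 had an unadjusted P of 0.215 by edgeR. TNFSF10 is itself known as an interferon-induced gene, and a list of interferon-stimulated genes was read beside it after its values were seen. The 6 genes matched of 8 listed, with IFI6 the most abundant, summed to 276 FPKM in rpFSH 4 and 70.4 in control 5, against 10.6 to 44.3 in the other pigs. Of these, MX1 was at 85.6 FPKM in rpFSH 4 and at 2.46 to 6.99 in the others, and MX2, ISG15, IFIT1 and RSAD2 were likewise highest in rpFSH 4. Only IFI6 was highest in control 5, at 55.6 FPKM, followed by rpFSH 4 at 46.7 and rpFSH 5 at 33.6. RSAD2, for example, was at 35.6 FPKM in rpFSH 4 and at 0.167 to 0.643 in the others. By edgeR with all pigs, 4 of the 6 genes were higher in the rpFSH treatment group at an unadjusted P under 0.05 and 0 lower, against 1.54 and 3.22% of all tested loci. The list was read after rpFSH 4 was seen to stand out, so this count is no measure of a difference between the groups. No fit of these genes without rpFSH 4 is given. Their part in the level of TNFSF10 was not tested.

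CSF2RB, the shared receptor chain for GM-CSF and related cytokines of myeloid cells, was at 2.41, 9.85, 4.49, 2.85 and 3.50 CPM in controls 1 to 5 and at 4.81, 2.65, 11.99, 11.2 and 17.9 CPM in rpFSH 1 to 5. It was highest in rpFSH 3, 4 and 5, with control 2 next. The log2 fold change was 1.07 (unadjusted P = 0.0754 by edgeR), with an interval on the log2 (CPM + 0.5) scale from -0.23 to 2.02.

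All 7 caspase loci were tested, and 0 had an unadjusted P under 0.05. The least abundant was the initiator CASP8, at a mean of 1.39 FPKM. It was highest in control 2 and control 5, at 20.3 and 18.0 CPM, against 8.32 to 12.7 CPM in the other 8 pigs, and its log2 fold change was -0.35 (unadjusted P = 0.200) with all pigs and 0.12 without them. The apoptosome caspase CASP9 was at 9.20 to 12.7 CPM in the controls and 10.3 to 13.3 CPM in the rpFSH pigs, with a log2 fold change of 0.07 and an interval on the log2 (CPM + 0.5) scale from -0.27 to 0.40.

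The inhibitor of apoptosis proteins, which bind caspases and death receptor complexes, showed 0 of 3 with an unadjusted P under 0.05. XIAP, at the locus ENSSSCG00000025028, was the most abundant at 6.74 FPKM, with 101 to 160.4 CPM in the controls and 95.3 to 172 CPM in the rpFSH pigs. The locus named BIRC3 in the table, which its description gives as BIRC2, had a log2 fold change of 0.03. BIRC5 (survivin), which also serves in cell division, varied 13.4-fold between pigs, and is taken up with the other variable members.

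Of the BCL2 family, the anti-apoptotic loci were the joined loci of MCL1 and BCL2L1, at 11.5 and 2.44 FPKM. The MCL1 locus, pooled with GOLPH3L and ENSA, was at 186 to 309.5 CPM in the controls and 218 to 268 CPM in the rpFSH pigs, with a log2 fold change of 0.00. BCL2L1 had a log2 fold change of 0.19 (unadjusted P = 0.260 by edgeR). Of the pro-apoptotic members, BAD was the most abundant at 3.06 FPKM. BAD, BID and BCL2L11 (BIM) are BH3-only proteins, which relay upstream signals to mitochondria, and their log2 fold changes were 0.01, -0.02 and -0.14. PMAIP1 (NOXA), a BH3-only protein that opposes MCL1, was at 2.59, 4.19, 1.59, 0.549 and 2.69 CPM in controls 1 to 5 and at 0.609, 0.462, 0.901, 3.47 and 1.02 CPM in rpFSH 1 to 5. In the rpFSH treatment group it was highest in rpFSH 4, and the other rpFSH pigs lay below 4 of the 5 controls (log2 fold change -0.84, unadjusted P = 0.219 by edgeR).

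The death factors released from mitochondria and the apoptosome gave 0 of 7 tested members with an unadjusted P under 0.05. APAF1, the scaffold of the apoptosome, was at 53.6 to 94.1 CPM in the controls and 50.0 to 130.2 CPM in the rpFSH pigs, a log2 fold change of 0.39 (unadjusted P = 0.175 by edgeR). DIABLO, which relieves the block of caspases by inhibitor proteins, was at 20.6 to 25.3 CPM in the controls and 18.3 to 25.5 CPM in 4 rpFSH pigs. Only rpFSH 1, at 51.2 CPM, stood out. CYCS (cytochrome c) was likewise highest in rpFSH 1, at 33.0 CPM against 8.96 to 19.2 CPM in the other pigs. PIDD1, which acts after DNA damage and lies at a locus joined with SLC25A22, had a log2 fold change of -0.01. ITPR1, a calcium channel of the endoplasmic reticulum that can feed calcium to mitochondria, was at 234 to 333 CPM in the controls and 256 to 480.2 CPM in the rpFSH pigs, with a log2 fold change of 0.38 (unadjusted P = 0.0851 by edgeR).

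Kinases of survival signalling differed little between the groups. All 9 members of the PI3K and AKT role, all 7 RAS and MAP kinases and all 6 members of NF-kappa-B signalling had intervals within a 2-fold change. Apart from AKT2, 0 of these 22 had an unadjusted P under 0.05. The MAP kinase kinase MAP2K2 was at 61.8 to 71.0 CPM in the controls and 64.7 to 72.7 CPM in 4 rpFSH pigs, with 113 CPM in rpFSH 1. NFKBIA, the inhibitor that holds NF-kappa-B in the cytoplasm and the most abundant of its role at 15.0 FPKM, had a log2 fold change of -0.27 (unadjusted P = 0.271 by edgeR), with control 2 the highest at 57.5 CPM.

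Cathepsins, lysosomal proteases that can cut BID when they leak into the cytosol, were among the most abundant members. CTSB reached a mean of 71.4 FPKM and CTSC 49.0 FPKM, and of the 11 cathepsin loci 7 had a log2 fold change above 0 and 4 below. Apart from ARNT/CTSS, 0 of them had an unadjusted P under 0.05. CTSB was at 258 to 461 CPM in the controls and 273 to 517 CPM in the rpFSH pigs, a log2 fold change of 0.23 (unadjusted P = 0.286 by edgeR). CTSW, a cathepsin of cytotoxic lymphocytes that falls outside the rule for naming genes, was at 8.60 to 12.1 CPM in the controls and 7.05 to 8.94 CPM in the rpFSH pigs. Its log2 fold change was -0.32 (unadjusted P = 0.0574 by edgeR), and its exact permutation p of 0.0238 was the only other one under 0.05 besides that of AKT2.

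The targets that caspases cut included the most abundant members of all, the actins ACTG1 and ACTB at 333 and 238 FPKM. ACTG1 had a log2 fold change of 0.08, and 12 of 12 cytoskeletal and 9 of 9 nuclear targets were tested. Apart from the tubulin alpha-1D locus, 0 of these 21 had an unadjusted P under 0.05. PARP1, a DNA repair enzyme and classical caspase substrate, was at 33.9 to 81.5 CPM in the controls and 43.3 to 67.4 CPM in the rpFSH pigs (log2 fold change -0.14, unadjusted P = 0.564 by edgeR). The related PARP3 had a log2 fold change of 0.46 (unadjusted P = 0.185 by edgeR) and was highest in rpFSH 1, control 2 and rpFSH 4, at 71.3, 54.1 and 48.5 CPM.

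**Figure D3:**
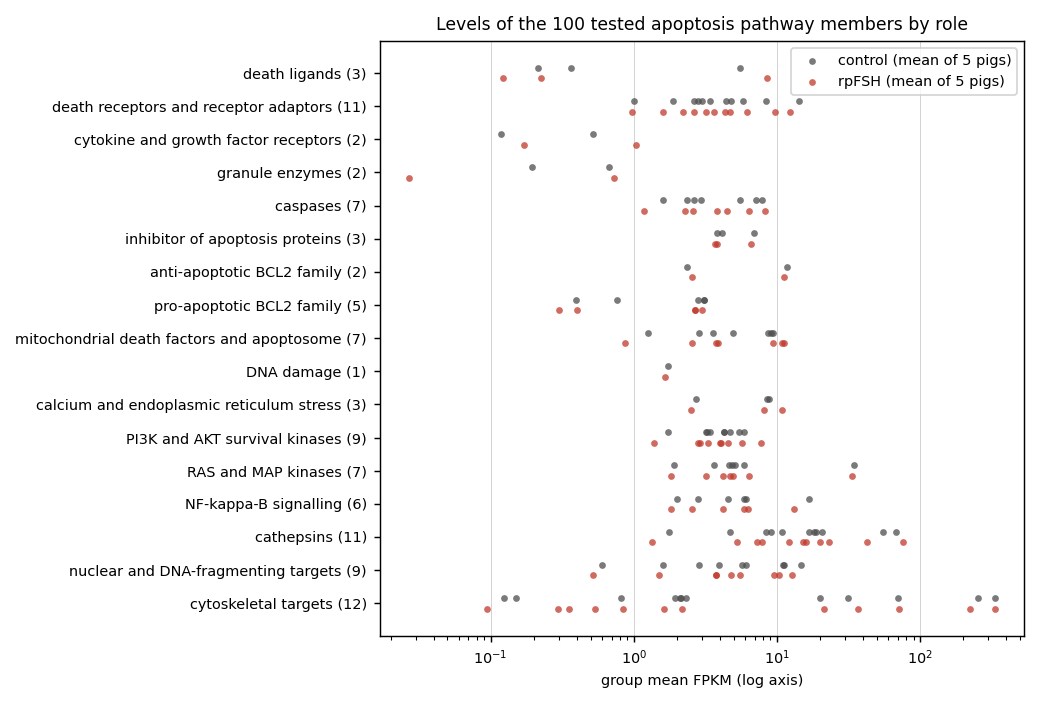
Mean FPKM (log axis) of each of the 100 tested members by role, grey for controls and red for rpFSH pigs, with the number of tested members in parentheses. Actins, CTSB, CTSC, and 2 tubulins are among the most abundant, and FASLG and GZMB lie below 1 FPKM.

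The members differed widely in how much they varied among pigs. The median SD of log2 (CPM + 0.5) over the 10 pigs was 0.35 for the members and 0.37 for all tested loci. The steadiest member was the RIPK1 locus, whose highest pig was 1.18 times its lowest, and PIK3CB, with 1.27 times, was also among the steadiest. Toward the other end were CTSL and CTSC, with SDs of 1.86 and 1.81. The range of CTSL was 88.3-fold and that of CTSC 33.1-fold.

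CTSC, which activates the proteases of immune cell granules, was at 59.5, 1445, 62.1, 43.7 and 58.0 CPM in controls 1 to 5 and at 916, 52.9, 74.0, 213 and 75.7 CPM in rpFSH 1 to 5. The 3 high pigs, control 2, rpFSH 1 and rpFSH 4, were those with the highest luteal marker sums, and they came in the same order. The groups thus overlapped fully, with a log2 fold change of -0.32 (unadjusted P = 0.790) by edgeR. On the log2 (CPM + 0.5) scale the limma difference had the other sign, 0.42, with an interval from -1.91 to 2.74. Without control 2 and control 5 the edgeR log2 fold change was 2.29 (unadjusted P = 0.0479). Without control 2, rpFSH 1 and rpFSH 4 the log2 fold change was 0.28, with every remaining pig between 43.7 and 75.7 CPM. The lysosomal protease CTSD and the mitochondrial factor AIFM1 were also highest in control 2 and rpFSH 1, at 307 and 188 CPM for CTSD and 61.9 and 36.9 CPM for AIFM1.

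BIRC5, whose product is needed for cell division, was lowest in control 2, rpFSH 3, rpFSH 4 and control 5, at 1.03, 2.90, 3.50 and 3.72 CPM, against 7.96 to 13.8 CPM in the other 6 pigs. The nuclear lamina gene LMNB1 was lowest in the same 4 pigs, at 11.7, 17.3, 21.9 and 23.4 CPM, against 37.2 to 63.6 CPM. Of these, control 2, rpFSH 3 and control 5 were the 3 pigs with the lowest granulosa marker sums. Neither gene separated the groups, with log2 fold changes of -0.06 and -0.04. BIRC5, LMNB1, CTSD, AIFM1 and LMNA fall outside the rule for naming genes and were chosen after their values were seen.

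CTSL was at 35.1, 11.3, 21.9, 296 and 3.36 CPM in controls 1 to 5 and at 16.5, 61.0, 3.64, 50.3 and 19.6 CPM in rpFSH 1 to 5. Control 4 alone was very high, and the log2 fold change of -1.29 had an unadjusted P of 0.271 by edgeR.

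**Figure D4:**
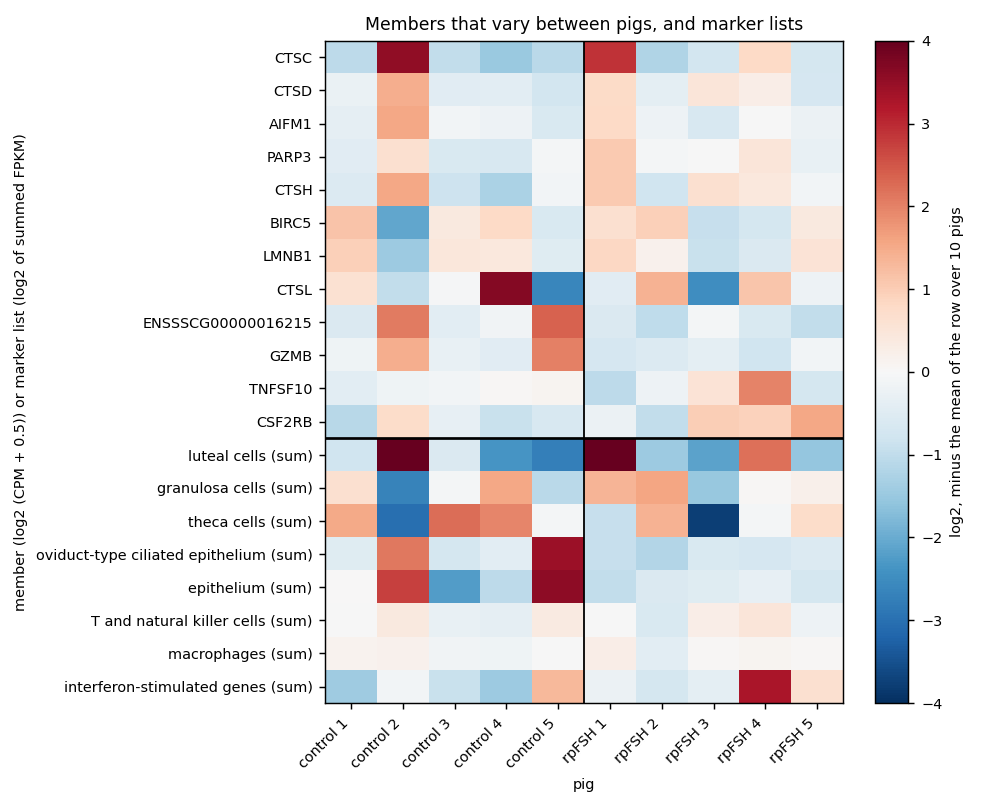
Members that vary between pigs (above the line, log2 (CPM + 0.5)) and marker lists (below the line, log2 of the summed FPKM), each minus its mean over the 10 pigs, with colours ending at 4 in either direction. CTSC is high in the pigs with high luteal sums, the tubulin locus and GZMB in those with high ciliated and epithelial sums, and TNFSF10 in rpFSH 4 with the interferon-stimulated genes.

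Without control 2 and control 5, which leaves 3 controls against 5 rpFSH pigs, 11 of the 100 members were higher in the rpFSH treatment group at an unadjusted P under 0.05 and 0 were lower. In the same fit 4.54% of all tested loci were higher and 2.29% lower, the smallest adjusted p of a member was 0.685 by edgeR, and 0 loci had an adjusted p under 0.05. The 11 were LMNA, CTSH, PARP3, MAP2K1, CASP10, CSF2RB, TNFRSF1A, ITPR1, AKT2, CTSC and IKBKB, from 9 of the 17 roles. The median log2 fold change was then 0.08 for the members and 0.05 for all tested loci. LMNA, the lamin of differentiated cells, was at 52.0 to 68.0 CPM in controls 1 to 4, with control 2 the lowest, at 74.5 to 87.0 CPM in the rpFSH pigs, and at 212 CPM in control 5. Control 5 was thus the only control above the rpFSH pigs. Its log2 fold change was -0.14 with all pigs and 0.44 without control 2 and control 5.

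This fit takes a luteal-rich pig from the controls and keeps rpFSH 1 and rpFSH 4. When those 2 pigs were left out as well, leaving 3 against 3, 7 members were higher and 2 lower, against 4.05 and 2.34% of all tested loci, and 6 of the 11 kept an unadjusted P under 0.05 by edgeR. The 6 were LMNA, CTSH, PARP3, MAP2K1, CSF2RB and AKT2, and ITPR3 was the other higher member. The 2 lower members were the caspase 2 locus ENSSSCG00000016464, with a log2 fold change of -0.47 (unadjusted P = 0.00974 by edgeR, the smallest among the members in that fit), and PIK3CD, with -0.55 (unadjusted P = 0.0302). When control 2, rpFSH 1 and rpFSH 4 were left out and control 5 kept, 2 members were higher, CSF2RB and AKT2, and 0 lower, against 1.75 and 1.44%. AKT2 and CSF2RB had an unadjusted P under 0.05 in each of these fits. Their log2 fold changes were 0.37 and 0.48 for AKT2 and 1.75 and 1.71 for CSF2RB, which with all pigs had an unadjusted P of 0.0754 by edgeR. The number of other members depended on which pigs were kept.

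**Figure D5:**
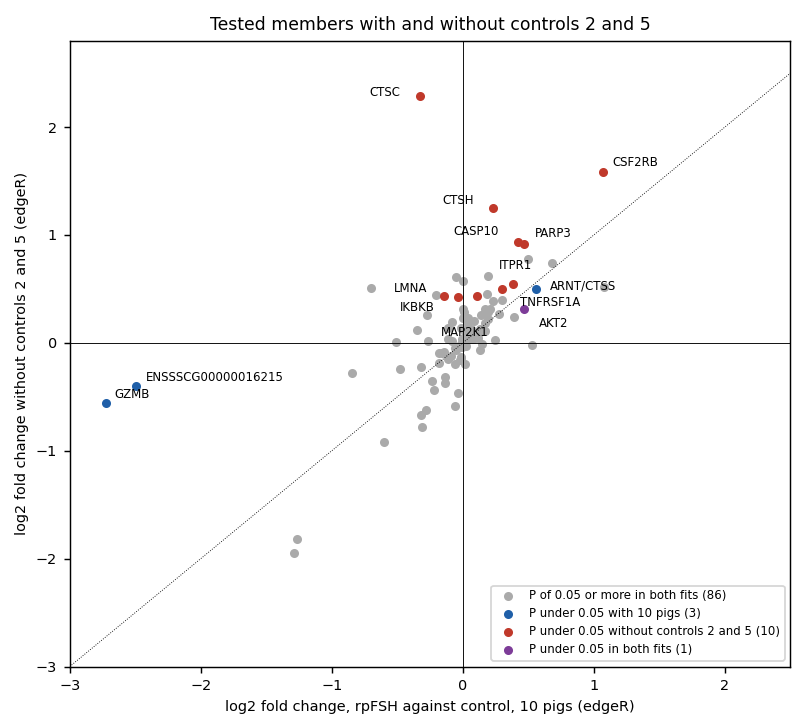
Log2 fold change by edgeR of the 100 tested members with all 10 pigs (x axis) and without control 2 and control 5 (y axis), with the dotted line where both are equal. The 11 members with an unadjusted P under 0.05 without these controls are all above 0 on the y axis, and the tubulin locus and GZMB move from below -2 to near -0.5.

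Of the 23 pathway loci dropped by the rule, 22 were tested and 3 had an unadjusted P under 0.05, against 4.76% of all tested loci. GADD45B, a stress sensor that acts on MAP kinases, was at 3.60, 7.41, 5.97, 3.37 and 2.83 CPM in controls 1 to 5 and at 25.7, 8.83, 5.13, 14.8 and 21.8 CPM in rpFSH 1 to 5. Only rpFSH 3 lay within the range of the controls. Its log2 fold change was 1.72 (unadjusted P = 0.00312 and adjusted p = 0.992 by edgeR, adjusted p = 0.0381 by DESeq2), and it was 1.83 without control 2 and control 5. The stress kinase MAPK10 (JNK3) had a log2 fold change of -1.02 (unadjusted P = 0.0120 by edgeR), which was -0.61 (unadjusted P = 0.0608) without these controls. BAX, the effector that opens the outer mitochondrial membrane, is pooled with NUCB1 and DHDH, and this locus had a log2 fold change of 0.31 (unadjusted P = 0.0396 by edgeR). The other effector BAK1, pooled with IP6K3, had a log2 fold change of 0.03.

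A list of 40 further cell death genes outside the pathway column, such as those of necroptosis and pyroptosis, was read in the same fit. Of these, 34 were matched and 32 tested, and 0 had an unadjusted P under 0.05 by edgeR, the smallest being 0.116 for CIDEA. Without control 2 and control 5, 4 of the 32 were higher and 0 lower, against 4.54 and 2.29% of all tested loci. They were TNFRSF12A, RIPK3 at a locus joined with ADCY4, MLKL and GSDME, with log2 fold changes of 0.95, 0.64, 0.63 and 0.41 in that fit and of 0.21, 0.29, 0.40 and 0.17 with all pigs. MLKL was highest in the luteal-rich pigs rpFSH 1, rpFSH 4 and control 2, at 29.4, 27.5 and 27.2 CPM, against 12.6 to 24.3 in the others. The RIPK3 locus was highest in rpFSH 4 and control 2, at 30.4 and 29.9 CPM. That fit leaves out control 2 and keeps rpFSH 1 and rpFSH 4. RIPK3 and MLKL act one after the other in necroptosis, and GSDME forms membrane pores.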

How the data were processed

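Per the methods of the study, the authors used Cutadapt for trimming, Bowtie2 and Hisat2 for alignment (Sscrofa11.1), StringTie for assembly and FPKM, and Ballgown with it for expression levels and for the differential test. The deposited FPKM and the deposited counts per locus were used, and how the authors made the counts is not given in the sources used here. The methods describe rRNA removal and the labels poly(A) selection.

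Counts of loci averaging 0.1 FPKM or more were fitted with edgeR 4.0.16 (TMM, quasi-likelihood, unpaired, library size over all loci) in R 4.3.3, with Benjamini-Hochberg adjustment over 15170 loci. P values are two-sided and set the difference between the groups against the spread between pigs. Intervals come from limma 3.58.1 with trend on log2 (CPM + 0.5). Single members were compared by a two-sided exact permutation test over 252 assignments on the same scale. DESeq2 1.42.0 and the other alternatives are described at the end. The fit was tested on simulated data.

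Members, lists and roles were chosen with earlier results of these data known. The interferon list, the fits without luteal-rich pigs, limma on CPM and the count over loci with 1 gene name (3 of 85 members with an unadjusted P under 0.05) came after the values were seen. For that count no share over all loci with 1 gene name is given, and the share over all tested loci was 4.76%. Named genes were, for each role, the member with the highest mean FPKM and that with the smallest P, members with an unadjusted P under 0.05 or groups without overlap, the 3 most variable members, a core list, and dropped or further genes with an unadjusted P under 0.05. Some of these are not reported here.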

Additional observations from a re-analysis of the deposited data

Results flagged for a closer look

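In 74 groups of 5 pigs, the 2 groups of each of 37 named members, 9 values lay far from the other 4 pigs of their group, where the gap to the nearest pig was more than 0.71 of the group's range. For normally distributed values chance gives about 1 such value in 20 groups. The rule was applied to CPM without a check of this, and all 9 were the highest of their group, so the rate is no measure here. CTSC and CTSL, which hold 3 of the 9, were also named for their spread. Of the 9, 4 were in rpFSH 1, 2 each in control 2 and rpFSH 4, and 1 in control 4.

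In rpFSH 1, CTSC was at 916 CPM (others 52.9 to 213), DIABLO at 51.2 (18.3 to 25.5), CYCS at 33.0 (8.96 to 14.3) and MAP2K2 at 113 (64.7 to 72.7). In control 2, CTSC was at 1445 CPM (43.7 to 62.1) and CSF2RB at 9.85 (2.41 to 4.49). In control 4, CTSL was at 296 CPM (3.36 to 35.1). In rpFSH 4, TNFSF10 was at 245 CPM (29.7 to 90.1) and PMAIP1 at 3.47 (0.462 to 1.02).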

How the results depend on the processing

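The number of members with an unadjusted P under 0.05 was 4, of which 2 had a 2-fold change. Scaling with the size factors of DESeq2 or by the upper quartile, and no filter on FPKM, left these numbers at 4 and 2. With limma on log2 (FPKM + 1) they were 2 and 0, with limma on log2 (CPM + 0.5), added after seeing the data, 2 and 1, and with limma on log2 (FPKM + 0.1) or a mean FPKM of at least 1 the second was 1. Without control 2 and control 5 they were 11 and 3. In that fit 306 of all 15170 tested loci passed both limits as higher and 117 as lower. After the marker values were seen, leaving out control 2, rpFSH 1 and rpFSH 4 gave 2 and 1, and leaving out control 5 as well gave 9 and 1. Of all 15170 tested loci, 83 passed both limits as higher and 100 as lower in the first of these fits. In the second, 246 were higher and 116 lower. With 1 pig left out at a time they ranged from 3 to 9 and from 2 to 5, the first against 3.69 to 5.26% of all loci. Without control 2 they were 9 (5.26% of all loci) and 5, and without rpFSH 2 the first was 7 (5.18%). For the remaining alternatives of this paragraph no share of the 2-fold count over all loci is given, nor any share for limma on log2 (CPM + 0.5). Each of these fits gave 0 members with an adjusted p under 0.05, and the median log2 fold change ranged from -0.03 to 0.04 with 1 pig left out. The cause of these differences was not tested.

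CTSC reversed, to a log2 fold change of 2.29 without control 2 and control 5 and of 2.27 without control 2, and was -1.68 without rpFSH 1. Its sign also differed with all 10 pigs, at 0.32 with limma on log2 (FPKM + 1) and 0.42 with limma on log2 (CPM + 0.5). AKT2 had an unadjusted P under 0.05 in 22 of 22 alternatives (log2 fold change 0.31 to 0.53), ARNT/CTSS in 10 of 22, the tubulin alpha-1D locus in 17 of 22 and GZMB in 15 of 21.

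Same-numbered pigs did not deviate together, with r between -0.382 and 0.0496 across loci, so the numbers were not taken as pairs. With the replicate block, 3 members had an unadjusted P under 0.05 (2.44% of all loci) and 0 an adjusted p under 0.05. Of the 3, 1 had a 2-fold change, where 50 of all tested loci passed both limits as higher and 140 as lower. The log2 fold change of CTSC was 0.78 in that fit. Counting depth limits members with few counts, such as GZMB with 4 to 28 in the rpFSH pigs.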
